A study of Homo sapiens with 4 samples.

Results

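The genes described here are 9 antioxidant targets of the transcription factor NRF2 (HMOX1, NQO1, GCLC, GCLM, TXNRD1, TXN, SRXN1, SLC7A11 and ME1), chosen by symbol. All 9 were among the 19775 genes named on the array, and they were measured by 21 of its 54675 probe sets. RNA came from sublines of THP-1, a human monocytic leukemia line, that expressed either Siglec-14 or Siglec-5, sialic acid-binding receptors of myeloid cells. The sublines served as models of monocytes with and without the SIGLEC14 gene, and each subline is 1 line. The groups were Siglec-14,NTHi[+], Siglec-14,NTHi[−], Siglec-5,NTHi[+] and Siglec-5,NTHi[−]. NTHi[+] cells were incubated for 6 h with heat-killed nontypeable Haemophilus influenzae, strain 2019, at 100 bacteria per cell, and NTHi[−] cells were incubated without bacteria in the same serum-free medium. Each group has 1 Affymetrix U133 Plus 2.0 expression array, so a single value has no replicate error and the number of arrays limits the precision. Differences between the sublines other than the Siglec cannot be told apart from the Siglec, and in bulk RNA fewer expressing cells and less RNA per cell cannot be told apart.

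NRF2, encoded by NFE2L2, is held at a low level by KEAP1, which presents it for degradation. When reactive oxygen species or electrophiles modify KEAP1, NRF2 accumulates, pairs with small MAF proteins and binds antioxidant response elements in its target genes. The targets fall into arms that degrade heme and quinones, import cystine and make glutathione, recycle thioredoxin and peroxiredoxins, and supply NADPH. In macrophages the HMOX1 arm is known for limiting inflammation and handling heme.

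Antioxidant response elements are shown here because they are the sequence by which NRF2 targets are known. The core searched was TGACNNNGC on both strands, in windows from 250 bases before to 50 bases after each gene start, with sequences from RefSeq on build GRCh38.p14. Of the 9 genes, 7 had 8 such windows, with a pair of windows for TXNRD1, while HMOX1 and SLC7A11 had none in the table. The core was found in 4 of the 8 windows, those of GCLM, ME1 and TXNRD1, and in 13.3% of all 35116 windows. For ME1, whose signal differed between the lines, the 250 bases before the start (chr6:83431052-83431301, minus strand) hold 1 core, shown in capitals.
ME1 promoter: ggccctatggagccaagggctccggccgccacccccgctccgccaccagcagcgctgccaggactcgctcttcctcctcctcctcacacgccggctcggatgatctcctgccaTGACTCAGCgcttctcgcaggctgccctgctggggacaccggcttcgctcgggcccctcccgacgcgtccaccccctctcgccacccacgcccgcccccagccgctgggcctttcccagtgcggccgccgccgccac
This core begins 137 bases before the start and overlaps an AP-1 site (TGANTCA, also searched on both strands), which was found in 1 of the 8 windows and in 7.71% of all windows. A second ME1 core lies after the start and is not shown. For GCLM and TXNRD1, whose signals did not pass the test, the cores stand in capitals within 30 bases read along the strand of the core.
GCLM core, chr1:93909445-93909474, plus strand: ctggaagacaaTGACTAAGCagaaatcgta
TXNRD1 core, chr12:104215670-104215699, plus strand: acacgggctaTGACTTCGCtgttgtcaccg
TXNRD1 core, chr12:104286920-104286949, minus strand: cagagtcagaaTGACAAAGCagaaatccac
TXNRD1 has a further core at its start, which is not shown. A match is a description of the letters and not a measured binding site. NQO1, which also differed between the lines, had no match, which says only that these letters are not in that window.

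The arrays were of similar quality. The sums of all signals ran from 12735500 to 14047100, the medians from 15.1 to 16.5, and the ratio of the 3′ to the 5′ GAPDH control from 0.974 to 1.03. The median of all signals, 16.02, was taken as the floor under which a signal was not read as a level. Of 8 monocyte or myeloid markers, 6 were at or above the floor on every array. ELANE, LYZ, MPO and ITGAM were above the 75th percentile of all signals, 105, on every array, whereas CD14, a defining marker of monocytes, was below the floor on all 4. Among markers of other cell types, the endothelial VWF and CDH5 were below the floor on all 4 arrays. NKG7, 1 of 5 T and NK cell markers, and COL1A1, 1 of 4 fibroblast markers, were above the 75th percentile on all 4, while CD3E, COL1A2 and COL3A1 were below the floor on all 4. COL1A1 had signals of 257 and 266 in Siglec-14/THP-1, against 132 and 141 in Siglec-5/THP-1, with and without NTHi. The summed signal of the fibroblast markers was thereby 282 and 287 in Siglec-14/THP-1, against 152 and 176 in Siglec-5/THP-1, and its part in the line differences was not tested. EPCAM, KRT8, CD79A and HBB reached the floor on every array. The only SIGLEC5 probe set was dim, with signals of 19.5 and 21.3 in Siglec-14/THP-1 and 21.6 and 4.13 in Siglec-5/THP-1, each with and without NTHi, so it did not separate the lines as labelled. SIGLEC14 was not analysed here.

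The floor was reached on every array by 18 of the 21 probe sets, and these included 1 probe set or more of each gene. A probe set of GCLC (1555330_at) and one of TXNRD1 (1561080_at) were below the floor on all arrays, and 1 of ME1 (211204_at) reached it on 1 array. Each gene is given by its brightest probe set on average, except where a different one is stated. HMOX1 and SRXN1 have 1 probe set each. Signals of different probe sets depend on their probes, so the genes are not compared with each other by signal.

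**Figure D1:**
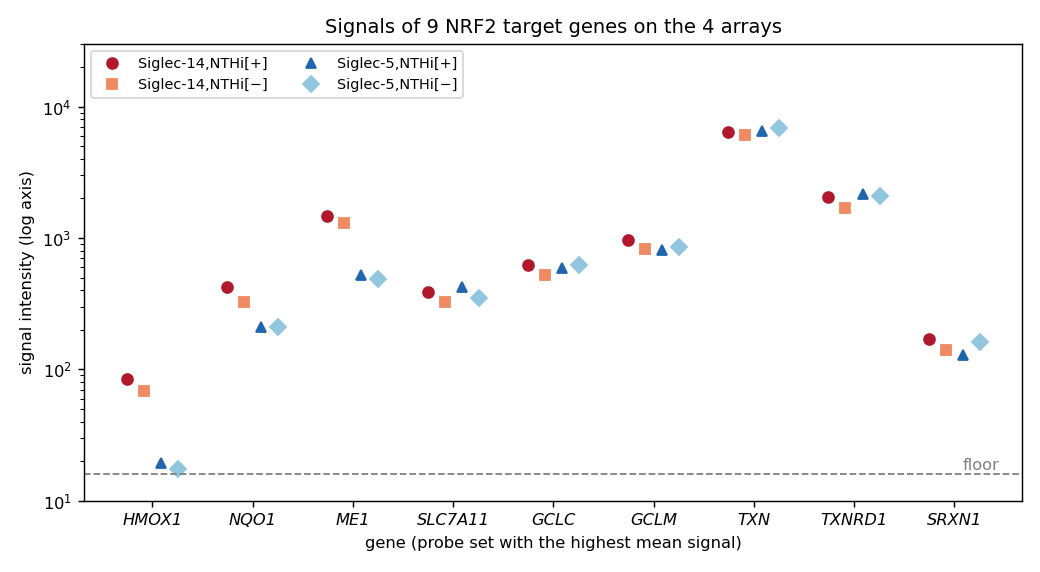
Signal intensity (log axis) of the 9 genes on each of the 4 arrays, 1 point per array, with the floor of 16.02 dashed. HMOX1, NQO1 and ME1 have both Siglec-14/THP-1 points above both Siglec-5/THP-1 points. The other 6 genes have points that lie close together, and TXN and TXNRD1 have both Siglec-14/THP-1 points below both Siglec-5/THP-1 points. The share of all genes so separated was not counted.

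HMOX1, NQO1 and ME1 were higher in Siglec-14/THP-1 than in Siglec-5/THP-1, with or without NTHi, while none of the genes of glutathione synthesis and the thioredoxin cycle passed the test as the signals were deposited. The test was a single limma model of the 4 arrays, in which the line effect and the NTHi effect add up. It leaves 1 residual degree of freedom and takes its variance from the trend of spread with intensity. At a Benjamini-Hochberg adjusted p under 0.05 over 31981 probe sets, 3 of the 9 genes were higher in Siglec-14/THP-1 and 0 were lower, against 6.13% higher and 4.95% lower among 13893 genes. When the arrays were first brought to 1 median, the split over all genes was 7.31% higher and 15.8% lower. It was 11.0% and 11.3% with quantile normalization, and 13.4% and 13.0% with trimmed-mean scaling. By a fold of at least 2, 3 of 9 genes were higher with NTHi and 2 of 9 without, against 4.28% and 3.1% of genes, and 0 were lower, against 0.964% and 1.39%. At 3-fold HMOX1 alone was higher, with and without NTHi, against 1.55% and 1.15% of genes. Without the intensity trend, 0 of the 9 passed for the line in the limma fit, as did 0 of all probe sets. At an unadjusted p under 0.05 there were 3 of the 9 genes and 6 of their 19 tested probe sets, against 3740 of the 31981 probe sets.

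HMOX1 encodes heme oxygenase 1, which breaks heme into biliverdin, iron and carbon monoxide. Its signal was 84.2 in Siglec-14,NTHi[+] and 68.3 in Siglec-14,NTHi[−], against 19.5 in Siglec-5,NTHi[+] and 17.4 in Siglec-5,NTHi[−]. Both Siglec-5/THP-1 signals lay just above the floor, and the lines did not overlap. The signal was 4.32-fold higher in Siglec-14/THP-1 with NTHi and 3.92-fold higher without. The log2 line term was 2.04 (standard error 0.31, limma adjusted p = 3.34e-09). Only 90 of 13253 genes had a larger ratio between the nonstimulated lines. With 16 added to every signal before the log, which damps dim signals, the line term was 1.42.

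ME1 encodes the cytosolic malic enzyme, which makes NADPH from malate. Its signal was 1465 in Siglec-14,NTHi[+] and 1293 in Siglec-14,NTHi[−], against 519 in Siglec-5,NTHi[+] and 485 in Siglec-5,NTHi[−]. These signals were bright and the lines were far apart, by 2.82-fold with NTHi and 2.67-fold without. The log2 line term was 1.46 (standard error 0.15, limma adjusted p = 1.50e-19). The second bright probe set (204058_at) gave 2.93-fold with NTHi and 2.73-fold without. The third had a signal of 19.5 in Siglec-14,NTHi[+] and was below the floor on the other arrays.

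NQO1 encodes the quinone reductase that carries electrons from NADPH or NADH to quinones. Its signal was 426 in Siglec-14,NTHi[+] and 327 in Siglec-14,NTHi[−], against 209 in Siglec-5,NTHi[+] and 212 in Siglec-5,NTHi[−]. The ratio of the lines was 2.03 with NTHi and 1.54 without, and its log2 line term was 0.83 (standard error 0.16, limma adjusted p = 1.55e-05). Under each of the 3 other scalings the log2 ratio with NTHi, between 0.91 and 0.97, was under 2-fold. All 3 NQO1 probe sets passed for the line. They gave ratios from 1.68 to 2.19 with NTHi and from 1.54 to 1.86 without.

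**Figure D2:**
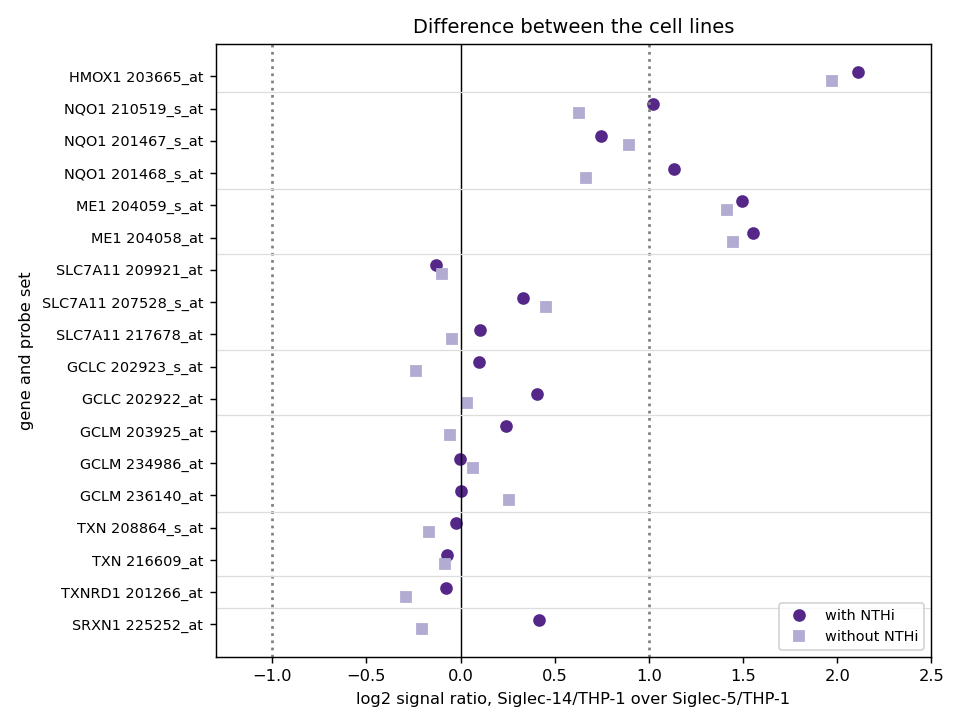
Log2 signal ratio of Siglec-14/THP-1 over Siglec-5/THP-1 for the 18 probe sets that reached the floor on every array, with NTHi (circles) and without (squares). The dotted lines mark 2-fold. The probe sets of HMOX1, NQO1 and ME1 lie from 0.63 to 2.11, and those of the other 6 genes lie from -0.29 to 0.45.

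In the cystine and glutathione arm no gene passed for the line. SLC7A11, the light chain of the cystine importer, had signals of 390 in Siglec-14,NTHi[+] and 324 in Siglec-14,NTHi[−], against 427 in Siglec-5,NTHi[+] and 347 in Siglec-5,NTHi[−]. GCLC, the catalytic subunit of glutamate-cysteine ligase, which makes the first step of glutathione synthesis, had 628 and 525 against 588 and 619 in the same order. GCLM, its modifier subunit, had 959 and 822 against 813 and 853. The highest and the lowest signal of each differed by 1.32-fold for SLC7A11, 1.20-fold for GCLC and 1.18-fold for GCLM. The signals of the lines overlapped for all 3 genes. Their line terms were -0.12 for SLC7A11, -0.07 for GCLC and 0.09 for GCLM, each with a standard error of 0.15 to 0.16, and none passed (limma adjusted p of 0.795, 0.883 and 0.838).

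In the thioredoxin arm no gene passed for the line with the signals as deposited. TXN, the small protein that reduces disulfides, had signals of 6428 in Siglec-14,NTHi[+] and 6102 in Siglec-14,NTHi[−], against 6527 in Siglec-5,NTHi[+] and 6853 in Siglec-5,NTHi[−]. TXNRD1, the selenoenzyme that regenerates it with NADPH, had 2039 and 1695 against 2150 and 2075 in the same order. Both Siglec-14/THP-1 signals of each were under both Siglec-5/THP-1 signals, by small margins. The line terms were -0.09 for TXN and -0.18 for TXNRD1 on the log2 scale, each with a standard error of 0.16 to 0.18, and neither passed. TXNRD1 passed as lower in Siglec-14/THP-1 with median scaling (-0.25, limma adjusted p = 0.0392) and with scaling on the trimmed mean (-0.14, adjusted p = 0.0487). SRXN1, sulfiredoxin, which repairs overoxidized peroxiredoxins, had 171 in Siglec-14,NTHi[+] and 140 in Siglec-14,NTHi[−], against 129 in Siglec-5,NTHi[+] and 161 in Siglec-5,NTHi[−]. Its line term was 0.11 (standard error 0.18, limma adjusted p = 0.845).

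With the signals as deposited, none of the 9 genes passed the test for NTHi. With trimmed-mean scaling TXNRD1 passed as higher with NTHi (log2 term 0.17, limma adjusted p = 0.0442), where 3.69% of all genes did. In the limma fit 0 were higher and 0 lower, against 0.986% higher and 0.288% lower among all genes. At an unadjusted p under 0.05 there were 0 of the 9 genes and 1 of their 19 tested probe sets, against 2027 of the 31981 probe sets. No gene reached 2-fold with NTHi in either line, against 1.15% higher and 0.607% lower in Siglec-14/THP-1 and 0.869% and 0.853% in Siglec-5/THP-1. The largest ratio in Siglec-14/THP-1 was that of NQO1, at 1.30, and the largest in Siglec-5/THP-1 that of SLC7A11, at 1.23. The median log2 ratio of the 9 genes was 0.27 in Siglec-14/THP-1 and -0.02 in Siglec-5/THP-1. All genes detected had medians of 0.08 and -0.11, and 8 of the 9 lay above the median of all genes in each line. With the other scalings it was 8 in Siglec-14/THP-1 and 7 or 8 in Siglec-5/THP-1. The ratios of HMOX1 were 1.23 in Siglec-14/THP-1 and 1.12 in Siglec-5/THP-1, and those of ME1 were 1.13 and 1.07. Among bright probe sets the log2 ratio with NTHi had an SD of 0.20 in each line.

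The probe sets of SLC7A11 differed in what they showed with NTHi. Probe set 217678_at had signals of 267 in Siglec-14,NTHi[+] and 163 in Siglec-14,NTHi[−], and 248 in Siglec-5,NTHi[+] and 169 in Siglec-5,NTHi[−]. Both NTHi[+] signals were above both NTHi[−] signals. This was the only 1 of the 19 tested probe sets of the 9 genes that passed for NTHi, where 294 of all 31981 did. Its log2 term was 0.63 (standard error 0.17, limma adjusted p = 0.0229). It did not pass without the intensity trend (adjusted p = 0.805) or with cell line left out (adjusted p = 0.9998). The brightest probe set, 209921_at, had a term of 0.28 (standard error 0.16, limma adjusted p = 0.876). The dimmest, 207528_s_at, pointed the other way, with 32.1 in Siglec-14,NTHi[+] and 46.0 in Siglec-14,NTHi[−], and 25.5 in Siglec-5,NTHi[+] and 33.6 in Siglec-5,NTHi[−]. Which transcripts each probe set reads was not tested.

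**Figure D3:**
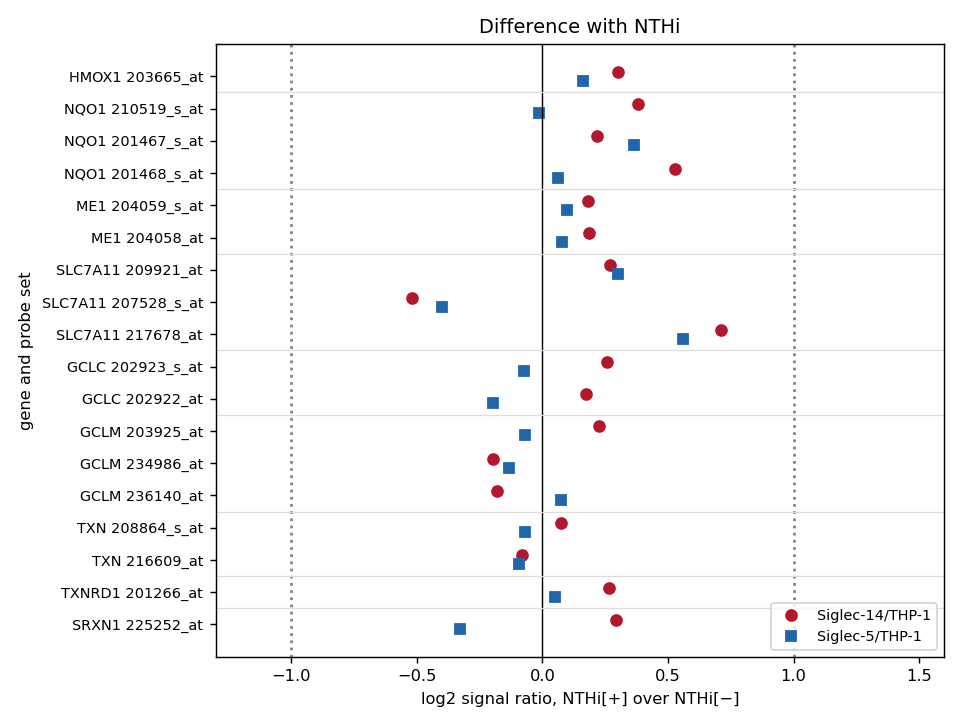
Log2 signal ratio of NTHi[+] over NTHi[−] in Siglec-14/THP-1 (circles) and Siglec-5/THP-1 (squares) for the 18 probe sets that reached the floor on every array. The dotted lines mark 2-fold, which no probe set reaches, and the 3 SLC7A11 probe sets spread from -0.52 to 0.71.

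With the signals as deposited, the genes of NRF2 and its main regulators did not pass for the line. NFE2L2 passed as higher in Siglec-14/THP-1 with quantile normalization and with trimmed-mean scaling. NFE2L2 had a signal of 1555 in Siglec-14,NTHi[+] and 1348 in Siglec-14,NTHi[−], against 1216 in Siglec-5,NTHi[+] and 1343 in Siglec-5,NTHi[−]. KEAP1 had 845 and 848 against 854 and 948 in the same order. BACH1, the repressor that occupies antioxidant response elements of HMOX1, had 391 and 401 against 346 and 356. Their line terms were 0.18, -0.09 and 0.18 on the log2 scale, each with a standard error of 0.15 to 0.16, and none passed (limma adjusted p of 0.603, 0.849 and 0.630). The array gives RNA levels, and NRF2 is controlled largely at the protein level.

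Other genes of the NRF2 control list did pass. Of its 11 measured genes, 3 were higher in Siglec-14/THP-1 and 0 lower, and 2 rose with NTHi, against 6.13%, 4.95% and 0.986% of all genes. With quantile normalization or trimmed-mean scaling 5 were higher, against 11.0% and 13.4% of all genes. With median or trimmed-mean scaling 1 was lower, against 15.8% and 13.0%. Under these last scalings 3 and 4 rose with NTHi, against 2.12% and 3.69%. SQSTM1, the p62 adaptor that binds KEAP1 and is itself an NRF2 target, had signals of 1192 in Siglec-14,NTHi[+] and 854 in Siglec-14,NTHi[−], against 595 in Siglec-5,NTHi[+] and 370 in Siglec-5,NTHi[−]. Its line term was 1.10 (standard error 0.15, limma adjusted p = 3.72e-11) and its NTHi term 0.58 (adjusted p = 0.0173). MAFF, a small MAF partner, had 147 and 64.5 against 51.1 and 47.8 in the same order. Its ratio with NTHi was 2.27 in Siglec-14/THP-1 and 1.07 in Siglec-5/THP-1. The lines differed by 2.87-fold with NTHi and 1.35-fold without, which a sum of 2 effects does not describe. Only its line term passed (limma adjusted p = 5.06e-04). Its NTHi term passed as well with median and with trimmed-mean scaling. NFE2L3, a relative of NRF2, had 359 and 219 against 240 and 122, and both its terms passed.

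Among 13 tested genes of a list of other NRF2 targets, 3 were higher in Siglec-14/THP-1 and 0 lower, and 0 passed for NTHi, against 6.13%, 4.95% and 0.986% higher with NTHi among all genes. With quantile normalization or trimmed-mean scaling, 5 of the 13 were higher, with ABCC1 and NQO2 added, against 11.0% and 13.4% of all genes. CBR3, a carbonyl reductase of the same detoxifying class as NQO1, had signals of 251 in Siglec-14,NTHi[+] and 286 in Siglec-14,NTHi[−], against 96.0 in Siglec-5,NTHi[+] and 103 in Siglec-5,NTHi[−]. The ratio of the lines was 2.62 with NTHi and 2.79 without (limma adjusted p = 7.20e-14). PIR, pirin, had 221 and 182 against 130 and 128 in the same order, and UGDH, the dehydrogenase that makes UDP-glucuronate, had 604 and 527 against 400 and 416. The list has 17 genes on the array, and those not tested were below the floor on every array.

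The shares of all genes beside the next counts are 6.13% higher and 4.95% lower in Siglec-14/THP-1 as deposited, and from 7.31% to 13.4% higher and from 11.3% to 15.8% lower under the 3 other scalings. Of 14 tested glutathione genes beyond the ligase, 0 passed for either term, with the count at 1 or 2 higher in Siglec-14/THP-1 under the 3 other scalings. Of 11 peroxiredoxin and thioredoxin genes, 1 was lower in Siglec-14/THP-1, the catalase gene CAT, with 4093 in Siglec-14,NTHi[+] and 4247 in Siglec-14,NTHi[−], against 5953 in Siglec-5,NTHi[+] and 5809 in Siglec-5,NTHi[−] (limma adjusted p = 0.0449, and not passing with no floor). PRDX1, a peroxiredoxin that thioredoxin recharges, had 6827 and 6025 against 6479 and 6316 in the same order. It did not pass for either term as deposited. With trimmed-mean scaling it passed as higher with NTHi, 1 of the 11, where 3.69% of all genes did. Of 8 pentose phosphate and NADPH-related enzyme genes, 1 was lower, ME2, the mitochondrial relative of ME1, with 881 and 971 against 1259 and 1388. Its direction was opposite to that of ME1, with a line term of -0.52 (limma adjusted p = 0.0121). With the 3 other scalings, where the share of all genes lower is itself larger, 3 or 4 of the 8 were lower. Of 8 heme and iron genes, 1 was lower, the iron exporter SLC40A1, with 56.6 and 73.7 against 90.4 and 143. BLVRA, the biliverdin reductase that acts next after heme oxygenase, had 766 and 598 against 811 and 966. It did not pass as deposited (line term -0.39, limma adjusted p = 0.0954). It passed as lower under each of the 3 other scalings, with which 2 or 3 of the 8 were lower. With trimmed-mean scaling FTL, a ferritin gene, passed as higher in Siglec-14/THP-1 and as higher with NTHi, 1 of the 8 for each. Among all genes 13.4% and 3.69% were higher for these terms under that scaling.

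**Figure D4:**
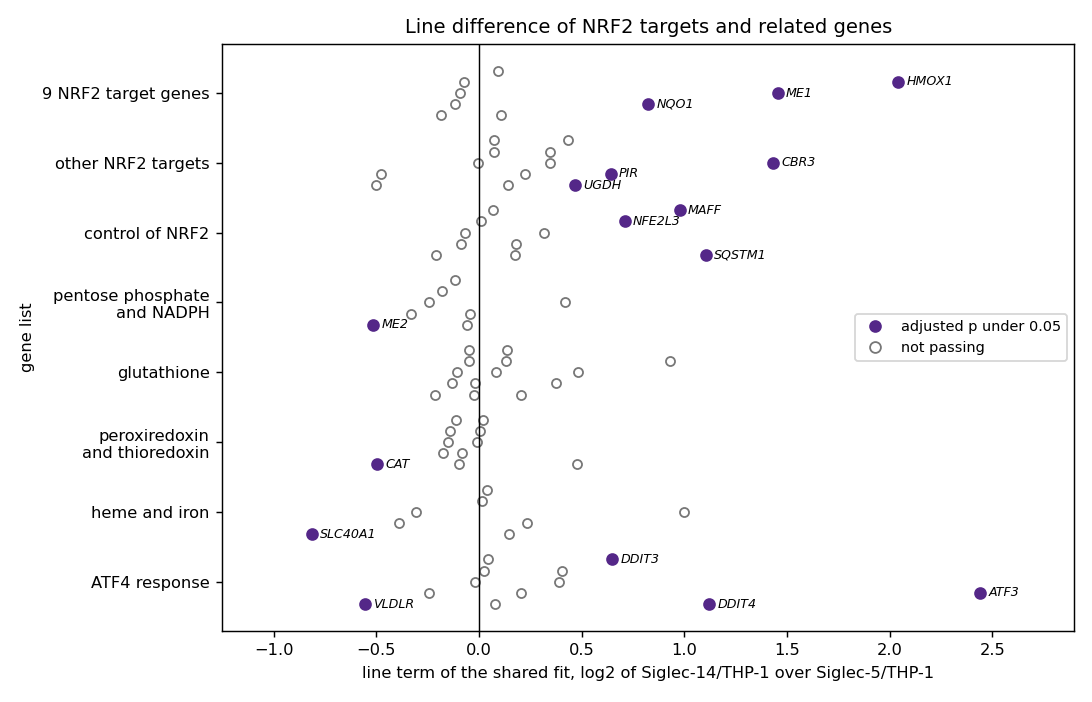
Line term of the shared fit (log2 of Siglec-14/THP-1 over Siglec-5/THP-1) for each tested gene of 8 lists, 1 point per gene, filled and named where the limma adjusted p was under 0.05. HMOX1, ME1, NQO1 and CBR3 lie at 2.04, 1.46, 0.83 and 1.43, while the glutathione list has no filled point.

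The genes whose profile over the 4 arrays lay closest to that of HMOX1 were sought among 2565 genes that varied, by the Euclidean distance of centred log2 signals. They were ACVR1, an activin type I receptor (distance 0.10), the kinase gene HIPK2 (0.10), the TWEAK receptor gene TNFRSF12A (0.12), SKIL, a corepressor of SMAD signalling (0.16), and ADTRP (0.18). TNFRSF12A, for example, had 119 in Siglec-14,NTHi[+] and 96.6 in Siglec-14,NTHi[−], against 30.1 in Siglec-5,NTHi[+] and 26.8 in Siglec-5,NTHi[−]. The genes closest to the mean profile of the 9 were RAPGEF2, EMP3, DNMBP, FUT8 and HOXC13, at distances from 0.08 to 0.10. With 4 points per gene, these are descriptions of likeness.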

How the data were processed

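Total RNA (250 ng) of each of the 4 samples, 1 per group, was measured on an Affymetrix U133 Plus 2.0 array. The authors quantified the signals with GeneChip Operating Software (GCOS, version not given in the sources used here) and, by their methods, standardized them on the cumulative signal of all probes. Each deposited value is the signal intensity of a probe set, not on a log scale. Their sums differ between arrays, and whether they carry that standardization is not known. Groups were taken from the sample titles. Probe sets were named with the platform's annotation (41097 with 1 gene, 1801 with several, which were not used under a gene's name, and 11777 with none), and 0 symbols needed an update. Signals were used as deposited. The floor was the median of all signals, and a ratio with 1 signal under it was computed against the floor and is a lower bound. limma 3.58.1 (R 4.3.3) fitted log2 signals of 31981 probe sets reaching the floor on 1 array or more, as a sum of a line effect and an NTHi effect, and eBayes took the prior variance from the intensity trend. Its prior degrees of freedom were infinite, so standard errors are those of probe sets of similar intensity, and p-values measure no spread between cultures. No test was made of a pair of single arrays. The fit was tested on simulated data with a large NTHi change put into brighter probe sets. That test did not cover the line term or small changes. The genes named are the 9, NFE2L2, KEAP1 and BACH1, up to 6 genes per other list with the largest ratios among those at least 2-fold different or passing, and the 5 nearest profiles. Genes named otherwise (BLVRA, FTL, PRDX1, ABCC1, NQO2, ATF4, ASNS, PSAT1 and PHGDH) were chosen after their values were seen. The members and lists were chosen with earlier results of these data known. Some listed genes were not analysed here. The alternatives were median, quantile and trimmed-mean (2%) scaling, a pseudocount of 16, other floors, other thresholds (1.5-fold and 3-fold), other probe sets, no trend, and 1 term left out. Python 3.11.15 with pandas 2.3.3 served for all other steps, and matplotlib 3.10.9 for the figures.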

Additional observations from a re-analysis of the deposited data

Results flagged for a closer look

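For 5 of the 9 genes the signal was higher with NTHi in Siglec-14/THP-1 and lower with NTHi in Siglec-5/THP-1, a difference that was not tested. The log2 ratio with NTHi in Siglec-14/THP-1 minus that in Siglec-5/THP-1 was 0.62 for SRXN1 (0.29 and -0.33), 0.40 for NQO1 (0.38 and -0.02), 0.33 for GCLC (0.26 and -0.07), 0.29 for GCLM (0.22 and -0.07) and 0.15 for TXN (0.08 and -0.07). The medians of all genes had the same signs, 0.08 in Siglec-14/THP-1 and -0.11 in Siglec-5/THP-1, a difference of 0.19. The share of all genes with this pattern was not counted, so the 5 are not read as a trait of the 9 genes. Under each of the 3 other scalings this pattern was kept by SRXN1 alone. With trimmed-mean scaling TXN had opposite signs the other way round, -0.01 in Siglec-14/THP-1 and 0.04 in Siglec-5/THP-1. SRXN1 has 1 probe set, and its 4 signals lay between 129 and 171.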

How the results depend on the processing

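HMOX1 kept its line call in 6 of 7 alternatives and ME1 and NQO1 in 7 of 8, with log2 terms from 1.42 to 2.09, from 1.39 to 1.51 and from 0.76 to 0.87. Without the intensity trend, 0 of the 9 were higher in Siglec-14/THP-1, with adjusted p of 0.194, 0.238 and 0.379 for HMOX1, ME1 and NQO1, so the calls rest on the trend. With median or trimmed-mean scaling 1 gene, TXNRD1, was lower in Siglec-14/THP-1, and with trimmed-mean scaling 1, TXNRD1, was higher with NTHi (adjusted p = 0.0442). Over all probe sets, 220 were higher and 74 lower with NTHi. These counts were 486 and 131 with median scaling, 353 and 176 with quantile normalization, 915 and 431 with trimmed-mean scaling, and 0 and 0 without the trend (1941 at an unadjusted p under 0.05) or with line left out (621). With the floor at the 75th percentile 33 were lower. For the line, 1501 were higher and 1217 lower, against 3967 lower with median scaling, 2508 and 2754 with quantile normalization, 3221 and 3081 with trimmed-mean scaling, and 0 and 0 without the trend (3740 at an unadjusted p under 0.05). At 3-fold, 1 of the 9 was higher in Siglec-14/THP-1 with NTHi and 1 without. With the floor at the 75th percentile, which HMOX1 does not reach on any array, 1 was at least 2-fold higher without NTHi. The median log2 ratio of the lines without NTHi was -0.10, and 0.26 with the probe set of the largest ratio. Of 616 values under alternatives, 574 stayed close to the main value or unchanged in call, 36 moved, 3 lost and 3 gained a call. Close meant a count within 1.5-fold, or a ratio within the SD of such ratios over probe sets. The number reversed was 0, counted only for ratios of at least 2-fold and terms that passed. Smaller ratios could change sign and still count as close. That of GCLC with NTHi in Siglec-5/THP-1 was -0.07 as deposited and 0.05 with quantile normalization. As deposited, the median log2 ratio over all genes between the lines without NTHi was -0.12, against 0.02 with trimmed-mean scaling. The labels carry no replicate numbers, so no replicate block could be fitted. The fit sets NTHi[+] against NTHi[−] within each line, and leaving line out, its form without that pairing, lost every NTHi call.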

Other observations

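SLC7A11 is also a target of the amino acid response led by ATF4, so a list of that response was read beside the 9 genes. Of its 12 genes, 3 were higher and 1 lower in Siglec-14/THP-1, and 1 rose with NTHi, in the limma fit, against 6.13%, 4.95% and 0.986% of all genes. Under each of the 3 other scalings 5 were higher in Siglec-14/THP-1, where from 7.31% to 13.4% of all genes were. With median or trimmed-mean scaling 2 were lower, against 15.8% and 13.0% of all genes. ATF3, a stress-induced factor, had a signal of 209 in Siglec-14,NTHi[+] and 197 in Siglec-14,NTHi[−], against 36.6 in Siglec-5,NTHi[+] and 38.3 in Siglec-5,NTHi[−]. Its line term, 2.44 (standard error 0.21, limma adjusted p = 4.51e-29), passed, and its NTHi term did not. DDIT4, an inhibitor of mTORC1, had 3306 and 1960 against 1388 and 987 in the same order and passed for both terms. DDIT3 (CHOP) had 224 and 148 against 115 and 117. VLDLR was lower, with 184 and 183 against 231 and 314. ATF4 itself and the amino acid enzymes ASNS, PSAT1 and PHGDH did not pass for either term as deposited. ASNS passed as higher in Siglec-14/THP-1 under each of the 3 other scalings, PSAT1 as lower with median and with trimmed-mean scaling, and ATF4 as higher with NTHi with trimmed-mean scaling. CHAC1, which degrades glutathione, had 29.9 and 24.5 in Siglec-14/THP-1 with and without NTHi and 39.9 with NTHi in Siglec-5/THP-1, at least 2.49-fold above Siglec-5,NTHi[−], which lay below the floor. It did not pass for either term.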
